A study of Caenorhabditis elegans with 4 samples.

Results

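Binding sites of the transcription factor ELT-3 in Caenorhabditis elegans were examined where they lay close together in runs. A run was defined as a chain of 4 or more neighbouring peaks in which no gap between a peak and the next exceeded 2000 bp. The peaks under 1300 bp wide that lay in such runs number 485 of the 5338 listed peaks. They belonged to 113 runs, which held 531 peaks in all, since 46 wider peaks lay in the same runs. The members were chosen by measured values, namely the positions and widths of the listed peaks. These come from the same comparison of ChIP with input as every other value of the list, so the values below are descriptions and none was tested.

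ELT-3 is a GATA-type zinc finger transcription factor, a class of protein that recognises short DNA sites with the core letters GATA. In the worm it is known as a factor of the hypodermis, the epithelium that lies under the cuticle and secretes it, where it acts below the GATA factor ELT-1 in larval and embryonic skin. Binding sites of 1 factor can lie side by side in a regulatory region, and a peak caller lists them as separate peaks when the signal between them drops.

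The sites were mapped by ChIP-seq, which sequences the DNA bound to an immunoprecipitated protein, in fed L1 (first larval stage) hermaphrodites of strain OP75, kept at 20 °C. The strain combines the ed3 mutation of unc-119 on chromosome III with the transgene wgIs75, which carries elt-3 fused to the TY1, EGFP and FLAG tags together with an intact copy of unc-119. Both groups share this genotype, namely 2 libraries of DNA precipitated with a goat antibody against GFP and 2 libraries of input DNA. All worms came from 1 transgenic strain made by bombardment, the binding is that of the tagged protein, and whole animals were used. The labels describe the fusion as expressed in the pattern of elt-3, name no change of the worm's own elt-3 gene, and give the stage as fed L1 while their lysis protocol mentions embryos. The authors deposited 1 combined list of peaks with 1 q-value for each peak (a p-value corrected for the number of regions tested). That list has no column per library, so neither depth nor the spread between replicates can be computed from it. Reads and signal tracks were not analysed here. Positions are in WormBase WS180 coordinates. They were not assigned to genes, and no sequence is shown, because no genome of that build was used here.

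Most runs were short. Of the 113 runs, 70 held 4 peaks, 28 held 5, 7 held 6, 2 held 7, 4 held 8, 1 held 10 and 1 held 13. By the same limit on the gap, 2907 peaks of the list had no neighbour, 614 groups had 2 peaks and 224 groups had 3. The runs thus held 9.95% of the peaks, against 35.6% in groups of 2 or 3 and 54.5% alone.

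The median run spanned 5415 bp, and the central 50% of the runs spanned 4411 to 7312 bp. Peaks covered a median of 49.9% of a run, with a range from 19.6% to 86.6%. All runs together spanned 698.8 kb of the 100.2 Mb up to the last peak of each chromosome, and their peaks covered 353.6 kb. Inside the runs, the median distance between the midpoints of neighbouring peaks was 1347 bp.

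Gaps inside runs had a median of 700.5 bp (n = 418, quartiles 434.75 and 1155 bp), and 32.3% of them were 500 bp or less. Gaps inside groups of 2 or 3 had a median of 835.5 bp (n = 1062), and 27.0% were 500 bp or less. The gap limit set the upper end of both sets. No neighbours in the whole list lay less than 200 bp apart, so both sets also had a lower end. Only 5 of the 113 runs had every gap at 500 bp or less and 38 had every gap at 1000 bp or less, while 48 runs were held together by at least 1 gap over 1500 bp. The 5 runs without a longer gap, named after their values were seen, held 4 peaks each. They lay on I at 12498947 to 12501762, on III at 8982010 to 8987370 and 9911933 to 9914007, on IV at 9630951 to 9634195 and on V at 12554024 to 12558491.

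At the limits that chose the runs, the list was continuous. The largest gaps inside a run were 2000 and 1989 bp, and the smallest gap that separated neighbours was 2003 bp. Within 100 bp of the limit, the list held 50 gaps on the near side and 32 on the far side. The widest member was 1297 bp and the narrowest excluded peak of a run was 1300 bp; within 100 bp of that limit lay 12 members and 7 excluded peaks. Peaks under 1300 bp in groups of 3, just short of a run, had a median width of 456.5 bp and a median q-value of 1.67e-06 (n = 618), next to 438.5 bp and 4.54e-07 for members in runs of 4 (n = 260).

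By the chaining rule, any peak outside a run lay more than 2000 bp from it, so some separation was fixed in advance. Counting the nearer side, the next peak outside a run lay at a median distance of 6025 bp (quartiles 3275 and 10936 bp), and 25 runs had such a peak within 3000 bp. The median distance from a run to the next run on its chromosome was 528.0 kb. Only 2 pairs of runs lay within 20 kb of each other. Named after their distances were seen, they were a run of 5 and a run of 4 on chromosome IV, at 11897421 to 11903145 and 11913441 to 11917319, and a run of 4 and a run of 6 on chromosome III, at 5812520 to 5816215 and 5832794 to 5842162.

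The longest run, with 13 peaks, also had the largest span. It lay on chromosome IV at 4017079 to 4033878, spanned 16.8 kb, and its peaks covered 44.1% of that length. The q-values were uneven along it. The strongest peak, a q-value of 5.39e-43 from 4030820 to 4031436, was the tenth in order, and the second strongest, at 4023947 to 4025120 with 8.42e-23, was the sixth. The first peak, 68 bp wide, had a q-value of 0.00961 and the last, 530 bp wide, had 0.000106. All 13 peaks were under 1300 bp, and the run ended on its left at a gap of 2878 bp.

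The run of 10 on chromosome I, at 10748240 to 10763297, held mostly weak peaks. Its strongest peak, the seventh in order from 10757940 to 10758846, reached 3.00e-18 in q-value. The fourth, at 10753798 to 10754159, came next with 1.12e-08, and the first peak had the weakest value, 0.00839. No peak of this run was 1300 bp or wider, and the widest was 918 bp.

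X had a pair of runs of 8, and the one with the stronger peak lay at 17630629 to 17644236, with its midpoint at 99.7% of the length of X. The strongest was the first one, a peak of 1137 bp from 17630629 to 17631765, with 5.16e-31. The sixth, at 17640715 to 17641234, had 4.97e-19, and the second, at 17633064 to 17633433, had 0.00976. Peaks covered only 33.4% of this run, and none was wide. The longest run of chromosome II, at 6820938 to 6830471, held 7 peaks, all under 1300 bp, with q-values from 1.88e-16 at its second peak to 0.00121 at the fifth.

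The longest runs of chromosomes V and III held wide peaks as well. On V, the run of 8 at 12291568 to 12307378 had 2 adjacent wide peaks. The left one, from 12298294 to 12301429, was 3136 bp wide with a q-value of 1.01e-47. The right one, from 12301761 to 12304112, was 2352 bp wide with 1.50e-16. Its strongest member was the third peak, 1.18e-22 in q-value from 12294950 to 12296016, and its weakest was the seventh, of 183 bp, with 0.000417. On III, the run of 6 at 5832794 to 5842162 held 2 wide peaks at its right end. Its strongest peak was nevertheless a narrow one, at 5835394 to 5835865, 472 bp wide with a q-value of 4.45e-33, beside 9.32e-33 for the wide peak at 5838050 to 5840040.

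**Figure D1:**
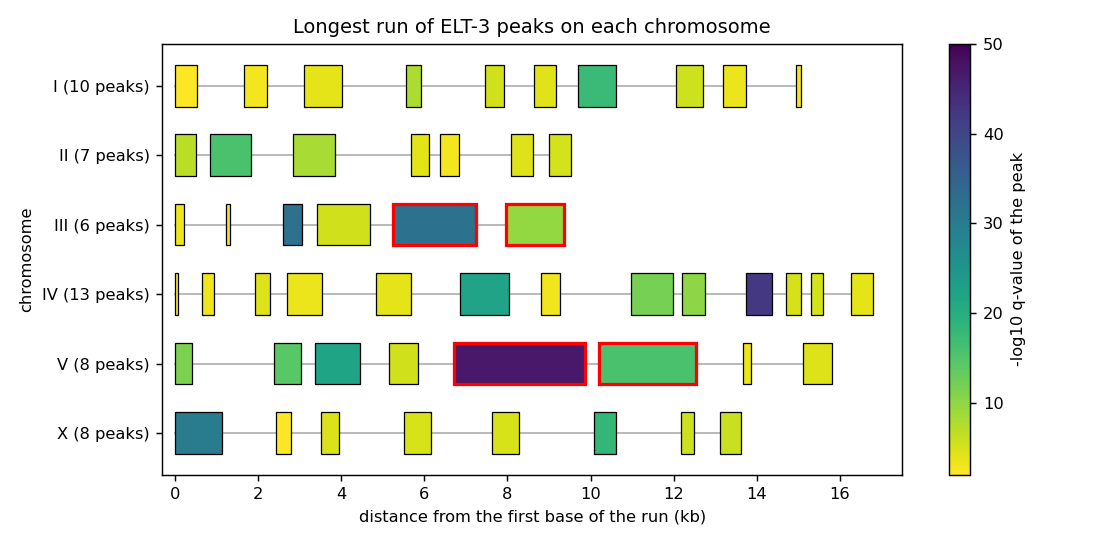
Peaks of the longest run of each chromosome, drawn to scale by distance in kb from the first base of the run; each box is a peak, its colour gives the negative log10 of its q-value, and red outlines mark peaks of 1300 bp or more. The run of 13 on chromosome IV spans 16.8 kb with its strongest peak the tenth in order, while the runs on V and III are the ones with wide peaks, 2 each.

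The most compact run held 4 peaks within 2075 bp, on chromosome III at 9911933 to 9914007. Its gaps were 308, 297 and 321 bp, and its q-values lay between 3.79e-06 and 0.00265. The weakest run lay on chromosome II at 8337266 to 8340126, where the 4 peaks were 226 to 343 bp wide and the strongest q-value was 6.66e-05. It was the only run in which no peak had a q-value below 1e-05, a bound passed by 51.2% of all listed peaks.

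The 10 strongest members lay in 8 runs on 5 chromosomes. The strongest was the first peak of a run of 4 on chromosome V. It measured 818 bp, from 12554024 to 12554841, and its q-value of 2.26e-80 ranked 27 in the whole list. In the same run, the wide peak from 12555755 to 12557844 had 3.14e-69. The remaining 2 peaks of this run were 216 and 210 bp wide with q-values of 0.00196 and 0.00290, so very strong and very weak peaks alternated within 4.47 kb.

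Chromosome I held 5 of these 10 members. In the run of 5 at 8864091 to 8869505, the last peak (8868942 to 8869505) had a q-value of 2.48e-69, the second (8865187 to 8865954) had 6.68e-49 and the fourth had 2.26e-40. Between them lay a peak of 367 bp with 0.00162. In the run of 4 at 7570611 to 7575833, the first and the last peak had q-values of 1.42e-57 and 1.82e-56. The last of these members on I, 1248 bp wide from 4917232 to 4918479, closed a run of 5 and had 3.14e-52.

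The other members of this set lay on chromosomes II, V, III and X. On II, the peak at 5605344 to 5606179 (q-value 4.27e-66) opened a run whose other 3 peaks were no stronger than 4.42e-06. On V, the peak at 11802336 to 11802928 (2.89e-62) was the sixth of a run of 7 in which every peak had a q-value below 1e-05 and 4 had one below 1e-20 (9.25% of all listed peaks). On III the peak at 8986678 to 8987370 had 4.38e-55, and on X the peak at 7986672 to 7987378 had 6.26e-49.

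Members as a set had smaller q-values than narrow peaks elsewhere, while they reached the weak end of the list as well. Members ran from 2.26e-80 to 0.00976, with a median q-value of 3.79e-07 and quartiles of 5.54e-15 and 0.000204. Peaks under 1300 bp outside runs had a median of 1.80e-05 (n = 4581, quartiles 1.68e-09 and 0.00102). Among those, the median was 3.72e-06 for peaks in groups of 2 or 3 (n = 1770) and 3.51e-05 for solitary peaks (n = 2811). From solitary peaks to groups of 2 or 3 to members, the median thus became smaller. The order did not hold for the longest runs. Members in runs of 8 or more had a median of 7.17e-06 (n = 52), weaker than that of groups of 2 or 3.

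A q-value below 1e-05 was held by 294 of 485 members (60.6%), where 51.2% of all listed peaks passed that bound. A q-value below 1e-10 was held by 164 members (33.8%), against 25.1% of all peaks. For the bound of 1e-20 the numbers were 77 members (15.9%) and 9.25% of all peaks. Wide peaks are counted in the shares of all peaks. Outside runs, 5.89% of the peaks under 1300 bp had a q-value below 1e-20. These shares rest on the contrast from which the members were chosen, and nothing further is read from them.

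The upper end of the list was richer in peaks of runs than the list as a whole. Of the 100 strongest peaks, 23 lay in runs, namely 10 members and 13 wide peaks, and of the 500 strongest 107 (21.4%) did, against 9.95% of all peaks. Solitary peaks made up 22 of the 100 strongest, 165 of the 500 strongest (33.0%) and 54.5% of the list. The remaining peaks lay in groups of 2 or 3, whose share of both upper parts also exceeded their 35.6% of the list. The larger share at the upper end was thus not particular to runs.

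Members also had a larger median width than narrow peaks elsewhere, by less than the spread within either set. Their median width was 469 bp (quartiles 337 and 635 bp), against 406 bp outside runs (quartiles 316 and 577 bp). It was 438 bp in groups of 2 or 3 (quartiles 333 and 641.75 bp, the upper one above that of members) and 388 bp for solitary peaks. Very narrow peaks, under 100 bp, made up 10 of the members (2.06%) and 2.51% of the narrow peaks outside runs. Peaks of 1300 bp or more made up 8.66% of the peaks in runs and 4.70% of those outside. The limit on width thus removed a larger share of the peaks of runs. Outside runs, 1770 of the 1900 peaks in groups of 2 or 3 and 2811 of the 2907 solitary peaks were under 1300 bp. Wide peaks were thus also more frequent in groups of 2 or 3 than among solitary peaks.

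**Figure D2:**
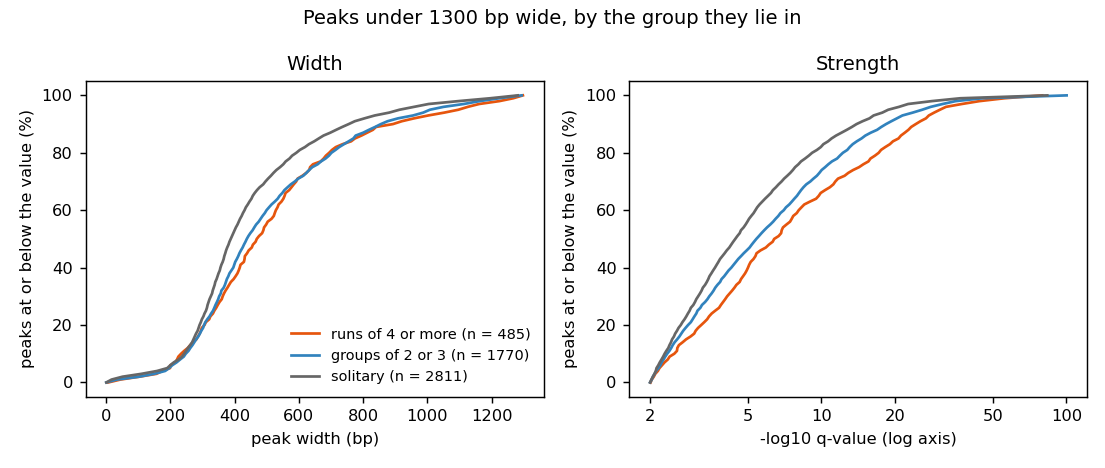
Percentage of peaks at or below a given width in bp (left) and a given negative log10 q-value on a log axis (right), for peaks under 1300 bp in runs of 4 or more, in groups of 2 or 3 and alone. The curve of the 485 members lies to the right for strength up to percentile 99, while the strongest peak of the groups of 2 or 3 (6.52e-101) exceeds the strongest member (2.26e-80), with medians of 3.79e-07, 3.72e-06 and 3.51e-05 for the q-values, and the widths have medians of 469, 438 and 388 bp.

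The difference in width was not the same at every strength. When all peaks under 1300 bp were divided into 5 equal classes by q-value, the strongest class held 32.2% of the members and 18.7% of the peaks outside runs. In that class members had a median width of 625.5 bp and the others 567 bp. In the next 2 classes the medians were 485.5 against 461 bp and 429 against 389.5 bp. In the weaker classes the order turned, with 342.5 against 352 bp and, in the weakest, 236.5 bp for 70 members against 302 bp for 943 other peaks.

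Strength within a run was uneven. The strongest peak of a run had a median q-value of 5.44e-24 over the 113 runs, and the weakest peak had a median of 0.00162. The median distance between them was 20.6 powers of 10 (quartiles 11.3 and 29.9). Such a range can only grow as more peaks are counted. No like range was computed for sets of peaks outside runs, so it is not shown to be particular to runs. A q-value below 1e-20 was held by 20.2% of the peaks in runs and by 9.25% of all listed peaks. In 69 runs at least 1 peak passed that bound, in 31 runs at least 2 peaks did, and in 6 runs at least 3 did. Of these 6, picked out after their values were seen, 5 lay on chromosome I and 1 on V. Those on I started at 4911510, 6258900, 7054609, 7570611 and 8864091, and that on V at 11795240. In 11 runs every peak had a q-value below 1e-05, a bound passed by 63.8% of the peaks in runs and 51.2% of all listed peaks.

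Neighbouring peaks inside a run differed widely in strength. The median difference between neighbours was 7.87 powers of 10 in q-value inside runs (418 pairs). It was 5.08 in groups of 2 or 3 (1062 pairs) and 3.61 between neighbours over 2000 bp apart (3852 pairs). Wide peaks are included in these pairs. The strengths of all peaks in runs were also more spread, with quartiles of 3.93 and 17.0 in negative log10 q-value. Outside runs the quartiles were 3.05 and 9.63. Whether the larger difference inside runs goes beyond that spread was not tested. Across pairs, Spearman's coefficient between the strengths of the left and the right peak was -0.03 inside runs, 0.13 in groups of 2 or 3 and 0.04 for the distant neighbours. Widths of neighbours gave 0.12, 0.25 and 0.10. Pairs share peaks and libraries, and each of these coefficients is weak.

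The difference was largest across the shortest gaps. Across gaps of 500 bp or less inside runs (135 pairs), the stronger peak had a median q-value of 9.24e-21 and the weaker one 1.71e-05, a median difference of 10.5 powers of 10. Across gaps over 500 and up to 1000 bp (147 pairs) the medians were 4.80e-15 and 3.51e-05. Across gaps over 1000 bp (136 pairs) they were 3.09e-12 and 0.000132, a difference of 6.64 powers of 10.

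The strongest peak was an inner one in 66 of 113 runs (58.4%). Of all peaks of runs, 57.4% were inner peaks. That share pools the peaks, so long runs count for more in it than in the share of runs. Over all widths, inner peaks had a median q-value of 2.48e-08 and a median width of 520 bp (n = 305), and first or last peaks had 3.51e-07 and 487 bp (n = 226). Among members alone the medians were 1.39e-07 and 474 bp for inner peaks (n = 276) and 8.36e-07 and 465 bp for first or last peaks (n = 209). A q-value below 1e-20 was held by 14.5% of the inner and 17.7% of the first or last members, the opposite order.

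**Figure D3:**
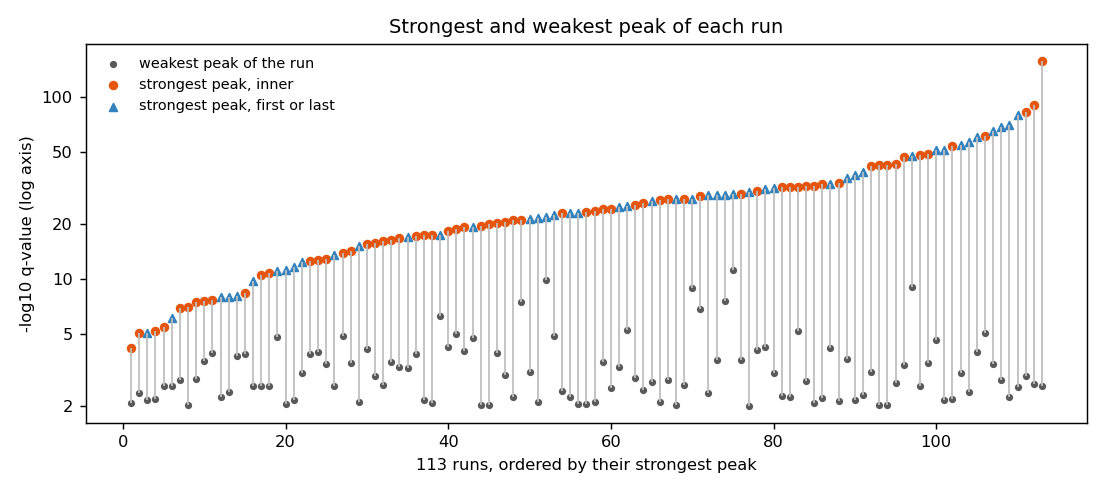
Strongest and weakest peak of each of the 113 runs as negative log10 q-values on a log axis, with runs ordered by their strongest peak; circles mark strongest peaks that are inner and triangles those that are first or last in the run. The weakest peaks stay low across the whole order, with a median q-value of 0.00162, while the strongest reach down to 1.06e-158.

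Wide peaks lay in 32 of the runs, with 1 wide peak in 22 runs, 2 in 8 and 4 in 2. In 22 of the 32 the strongest peak of the run was a wide one. The strongest peak of any run was of this kind and is named after its value was seen, at 15075620 to 15079896 on X, with a q-value of 1.06e-158. Members beside wide peaks had a median q-value of 3.11e-07 (n = 108) against 4.02e-07 in runs without a wide peak (n = 377). Their median widths were 521 and 456 bp.

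The pair of runs with 4 wide peaks each lay on chromosomes II and V. On II, at 10541904 to 10556190, the run of 5 was covered to 86.6% and its only member, 1093 bp wide, had a q-value of 0.00578, while the wide peaks reached 6.78e-33. On V, at 10711178 to 10723793, the only member was 23 bp wide with a q-value of 0.00817, beside a wide peak of 3381 bp with 3.59e-33. In both runs the single member was the weakest peak.

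Long runs did not hold stronger members throughout. The median q-value was 4.54e-07 for members in runs of 4 (n = 260), 1.87e-07 in runs of 5 (n = 122) and 2.06e-10 in runs of 6 or 7 (n = 51). In the 6 runs of 8 or more it was 7.17e-06 (n = 52), the weakest of the 4 classes. Widths were larger in longer runs, with medians of 438.5, 487, 503 and 540.5 bp in the same order.

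Every chromosome held runs. Chromosome I held 23 runs, II 21, IV 20, X 17, and III and V 16 each. Per Mb this was 1.53 on I (exact Poisson 95% interval 0.968 to 2.29), 1.38 on II, 1.16 on III, 1.14 on IV, 0.961 on X and 0.766 on V (0.438 to 1.24). The intervals of all 6 chromosomes overlapped. They cover counting error only, and their overlap does not show that the densities are equal. Chromosomes I and V also had the highest and the lowest density of all peaks, with 63.1 and 41.7 per Mb. The order was not the same throughout. III had the next highest density of all peaks, 61.6 per Mb, but fewer runs per Mb than II, which had 56.5 peaks per Mb.

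As a share of the chromosome's own peaks, runs held 11.3% on I, 10.9% on II, 10.4% on IV, 9.59% on X, 8.83% on V and 8.48% on III. Members numbered 103 on I, 90 on IV, 86 on II, 76 on X, 66 on V and 64 on III. Wide peaks in runs were most frequent on IV and V, with 11 each, followed by II and III with 8 each and I and X with 4 each. The share on X minus that on the autosomes together was -0.42 percentage points (95% interval -2.54 to 1.95, from exact binomial intervals that treat peaks as independent). It turned to 2.19 points when peaks within 500 bp were merged into 1.

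**Figure D4:**
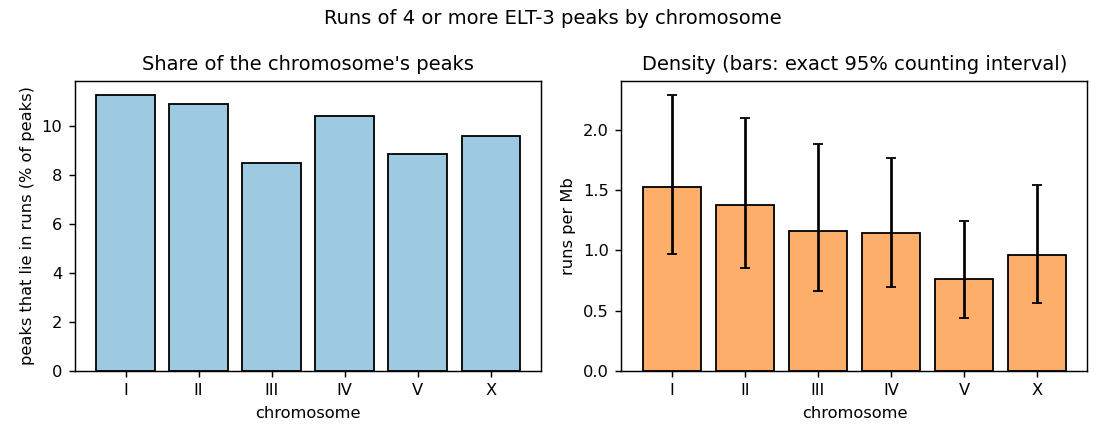
Left, percentage of each chromosome's peaks that lie in runs of 4 or more, wide peaks included; right, runs per Mb with exact Poisson 95% intervals as error bars. The shares run from 8.48% on III to 11.3% on I, and all 6 intervals for the density overlap.

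The length of the runs varied little between chromosomes. The mean number of peaks per run was 4.65 ± 1.30 on I (SD, 23 runs), 4.48 ± 0.814 on II (21 runs), 4.50 ± 0.730 on III (16 runs), 5.05 ± 2.14 on IV (20 runs), 4.81 ± 1.22 on V (16 runs) and 4.71 ± 1.31 on X (17 runs). IV, with the highest mean and SD, holds the run of 13. Runs of 6 or more numbered 4 on IV, 3 on V and 2 on each of the others. The median span ran from 4840 bp on II to 6554 bp on IV.

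Strength and width by chromosome gave a different order. Members had the smallest median q-value on V, 5.35e-09, followed by III with 3.61e-08, IV with 1.63e-07, I with 1.09e-06, X with 1.87e-06 and II with 4.83e-06. Narrow peaks outside runs had a larger median q-value than members on each chromosome, between 7.84e-06 on X and 3.98e-05 on V. A q-value below 1e-20 was held by 7.89% of the members on X (6 of 76) and by 11.6% to 21.9% on the autosomes. Among all listed peaks the share was 9.25%. Among narrow peaks outside runs it was 6.23% on X and 5.05% to 7.02% on the autosomes.

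On X members were not wider than other narrow peaks. The median width there was 469.5 bp for 76 members and 486 bp for 706 narrow peaks outside runs. On the 5 autosomes members had the larger median, by the least on II (442 against 405 bp) and by the most on IV (508.5 against 387.5 bp). Whether X differs from the autosomes in this respect was not tested.

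Over the genome, members and other narrow peaks had nearly equal central shares, and the shares on single chromosomes were not tested. The middle 33.3% of the chromosomes held 205 of 485 members (42.3%) and 41.9% of the narrow peaks outside runs. On I and II members were the more central, with 54.4% against 43.6% and 51.2% against 42.3%. On IV they were the less central, with 30.0% against 42.9%, and on III, V and X the shares were 32.8% against 37.6%, 43.9% against 47.3% and 36.8% against 37.1%. Peaks of 1 run enter together, and counted by runs the central part held 13 of 23 on I, 10 of 21 on II, 6 of 16 on III, 7 of 20 on IV, 7 of 16 on V and 7 of 17 on X.

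The near equality over the genome depends on the runs counted and on the part called central. With runs counted from 5 peaks up, so that runs of 4 fell outside, the central share of members minus that of the other narrow peaks was -10.4 percentage points, against 0.38 points with runs of 4 included. Of the runs of 4, 35 of 70 had their midpoint in the central part, but only 8 of 28 runs of 5 and 1 of 6 runs of 8 or more did, while 6 of 9 runs of 6 or 7 did. With runs of 4 included, the difference was -2.52 points without chromosome I and 3.39 points without chromosome IV.

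When each chromosome was cut into 10 equal parts, the outer parts of all 6 together held few runs and also fewer peaks of any kind. There were 3 runs in the first, 6 in the second, 6 in the ninth and 8 in the tenth part, which held 372, 372, 410 and 426 peaks. The seventh held the most runs, 18, and the sixth the most peaks, 743. As a share of the peaks found there, runs held 4.57% in the first part, 6.72% in the second, 14.3% in the eighth, 6.34% in the ninth and 9.15% in the tenth, the last close to the 9.95% of the whole list. In the tenth part of X the share was 20.2%. I, II, III and V had no run in their first part. The share was highest in the eighth part of I (27.9%) and in the third part of IV (25.6%), which holds the run of 13.

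**Figure D5:**
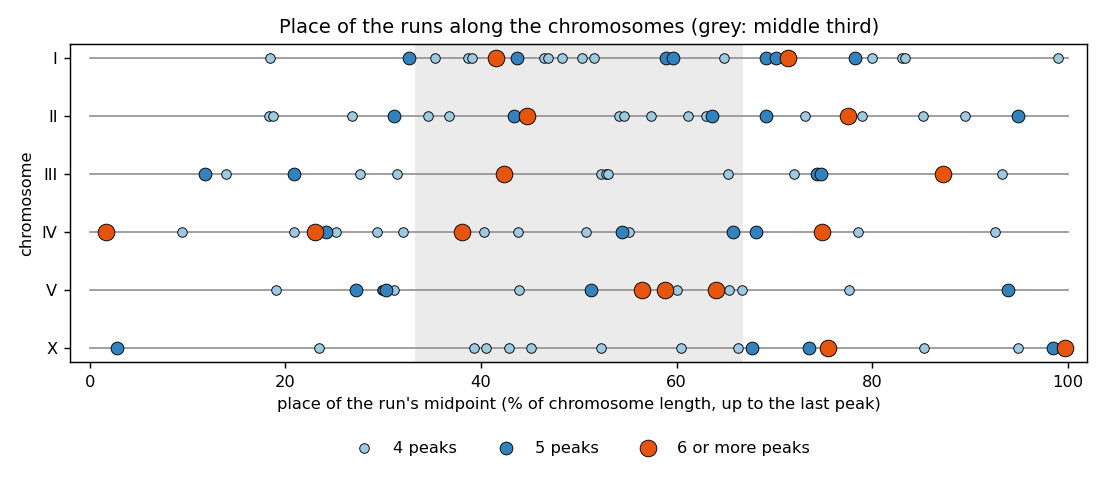
Midpoints of the 113 runs along the 6 chromosomes, as a percentage of the length up to the last peak; marker size and colour give the number of peaks per run and the grey band is the middle 33.3%. The first part, up to 10%, holds 3 runs, and 1 of the 6 runs of 8 or more peaks lies in the grey band.

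Among 97 complete windows of 1 Mb, 33 held no run, 33 held 1, 17 held 2, 12 held 3 and 2 held 4. The windows with 4 runs lay on chromosome V from 6 to 7 Mb, where runs held 17 of 72 peaks, and on chromosome I from 7 to 8 Mb, where they held 16 of 106. On V these were runs of 4, 4, 5 and 4 peaks between 6238317 and 6506766, and the next window to the right, with 42 peaks, held none. On I these were 4 runs of 4 peaks, which started at 7054609, 7271362, 7570611 and 7755540.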

How the data were processed

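The study compared 2 ELT-3::GFP ChIP libraries with 2 input libraries. The authors deposited 1 combined peak list with start, end and q-value (an adjusted p-value) per peak. Per the file headers positions are in WormBase WS180, and each line names PeakSeq, a caller that compares ChIP with input. The aligner, the filters and how replicates were combined are not given in the sources used here, and the list gives no depth.

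From the deposited positions, peaks were sorted and chained wherever the next start minus the end minus 1 was 2000 bp or less. Width was end minus start plus 1, place was the midpoint over the last peak end of the chromosome, and the middle 33.3% was called central. Shares, medians, quartiles and exact Poisson intervals were computed with Python 3.11.15, pandas 2.3.3 and scipy 1.17.1. The chaining was tested on simulated lists. The authors' q-values only describe and rank peaks within the list.

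The members and the sets described were chosen with earlier results of these data known. Named regions follow a rule: the longest run of each chromosome, runs of 9 or more peaks, the 10 strongest members, and the runs with the largest span, the smallest span per peak, the most wide peaks and the weakest strongest peak, with the fullest 1 Mb window. Ties in length went to the strongest peak. Alternatives changed the gap, the run length, the width limit, the part of the list and the chromosomes. Genes and motifs were not analysed here.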

Additional observations from a re-analysis of the deposited data

How the results depend on the processing

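No paired analysis was possible because libraries have no values of their own in the combined list, and no replicate could be left out. The number of runs and members follows the limits. In place of 113 runs, chaining anew gave 52 with gaps up to 1000 bp, 55 after peaks within 500 bp were merged and 18 in the stronger 50%. Counted from 3 peaks up there were 337, and from 5 peaks up 43. The number of members, 485, was 204 with gaps up to 1000 bp, 323 up to 1500 bp, 1103 in runs of 3 or more, 225 in runs of 5 or more, 74 in the stronger 50% and 210 after merging. The share of peaks in runs, 9.95%, became 4.25%, 6.61% and 14.4% with gaps up to 1000, 1500 and 3000 bp. It was 22.5% in runs of 3 or more, 4.70% in runs of 5 or more, 3.11% in the stronger 50% and 5.09% after merging. The difference between X and the autosomes in that share, -0.42 percentage points, was -1.49, -2.01 and -2.53 with gaps up to 1000, 1500 and 3000 bp, -2.55 with runs of 3 or more, -2.63 in the stronger 50% and 2.19 after merging. The difference in central share between members and other narrow peaks, 0.38 points, turned to -0.78 and -2.12 with gaps up to 1000 and 1500 bp. It was -10.4 in runs of 5 or more, -0.0727 after merging, -2.52 without chromosome I and -1.45 without II, and 6.79 for the middle 50%. Members had the larger median width in 15 of 15 alternatives, by 39.5 to 97.5 bp (main 63 bp, 94 bp in runs of 5 or more, 97.5 bp in the stronger 50%). In the main setting they were nevertheless not wider on X (469.5 against 486 bp) or in the weaker classes by q-value. Members were stronger in 15 of 15 as well, by 1.25 to 6.07 in median negative log10 q-value (main 1.68, 6.07 in the stronger 50%). The alternatives overlap and re-cut the list from which members were chosen, so these counts are no independent support. The cause of the changes between alternatives was not tested. The list gives no depth, so weak sites missed between listed peaks cannot be counted.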
